A study of Mus musculus with 9 samples.

Results

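The rows of the deposited expression table whose gene name starts with Nduf were taken, which gave 42 genes of 23231. They comprise 36 subunits of respiratory complex I (12 Ndufa, Ndufab1, 10 Ndufb, 2 Ndufc, 8 Ndufs and 3 Ndufv genes), the 4 assembly factors Ndufaf1 to Ndufaf4, and Ndufa4 and Ndufa4l2, which carry the name but are not subunits of the complex. All 42 passed the filter used for testing, a mean FPKM (fragments scaled by transcript length and library depth) of at least 1 over the libraries, as did 10794 genes in all. RNA came from tibialis anterior, a leg muscle, of C57BL/6 mice aged 6 months whose muscles had been electroporated with siRNA. The 3 controls received a non-targeting siRNA, 3 samples received construct 5 and 3 received construct 7, both directed against Ubr4, which encodes a large E3 ubiquitin ligase. Electroporation was thus common to all 9 samples, and the share of fibres that took up siRNA, the time after electroporation and the animal behind each sample are not given in the sources used here. The p-values therefore measure the spread between these samples, which may be technical in part.

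Complex I is the entry point of electrons from NADH into the mitochondrial respiratory chain, and it pumps protons across the inner membrane while it passes electrons to ubiquinone. Its matrix arm holds the flavin and the iron-sulfur clusters, in 7 core subunits of bacterial ancestry encoded in the nucleus, such as Ndufv1, Ndufs1 and Ndufs7, and its membrane arm holds the proton pumps, in core subunits encoded by mitochondrial DNA. Accessory subunits surround both arms, and assembly factors bind intermediates of the complex without staying in the finished enzyme. Skeletal muscle depends on the enzyme for oxidative ATP production.

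Ubr4 itself checked the labels. It was measured at 7.82, 10.3 and 9.09 FPKM in the controls, at 3.61, 3.80 and 2.73 with construct 5 and at 2.25, 2.59 and 3.07 with construct 7. Every siRNA library lay below every control, and the means were 37.3% and 29.1% of control. Ubr4 fell by 1.20 on the log2(FPKM + 1) scale with construct 5 (limma, adjusted p = 0.0168) and by 1.47 with construct 7 (limma, adjusted p = 0.00882), while the exact permutation test over libraries gave p = 0.1 for each, the smallest that 3 against 3 allows. The limma calls were lost without the filter on low genes (adjusted p = 0.0523 and 0.0976) and, for each construct, in 3 of the fits that left out 1 library, while the log2 difference stayed between -1.56 and -1.09. Estimated depth was 29312121 to 45563538 reads a library, and fast fibre markers summed to 61547 to 80600 FPKM against 52.8 to 97.9 for slow fibre markers. The member with the fewest estimated reads in any library was Ndufa4l2, with 271 reads in construct 5 replicate 3 (exact Poisson 95% interval 240 to 305, counting error only).

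In control muscle the subunits were among the abundant transcripts and the assembly factors were not. The median control level was 149 FPKM over the 36 subunits, 12.4 FPKM over the 4 Ndufaf genes and 4.9 FPKM over all tested genes. The subunits lay 12 times above the Ndufaf genes by this measure, which is per transcript length. A total of 28 subunits exceeded 100 FPKM and 8 were under 70 FPKM.

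Ndufa4, a protein now assigned to cytochrome c oxidase, was the highest of the 42 at 908 ± 87.9 FPKM (SD, n = 3). Ndufb9, an accessory subunit of the membrane arm, followed at 660 ± 42.4 FPKM. These first 2 in the order did not overlap among the controls. The 7 core subunits had a median of 167 FPKM, and the lowest of them was Ndufs3 at 134 ± 6.0 FPKM.

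At the low end Ndufb2, a small membrane arm subunit, was measured at 2.50 ± 0.307 FPKM, below Ndufa4l2 at 9.99 ± 0.612 FPKM and Ndufaf4 at 10.8 ± 0.866 FPKM. Ndufaf4 overlapped with both of its neighbours in the order, Ndufa4l2 and Ndufaf2 (11.1 ± 0.572 FPKM), whereas Ndufaf1 at 32.8 ± 1.67 FPKM lay above the other 3 Ndufaf genes in every control. Control libraries were alike for most members: 34 of 36 subunits had a coefficient of variation under 10%, with a median of 5.8%. Levels of Ndufb4 and Ndufab1 are uncertain, because reads may be split with near-identical copies that stand in the table, Gm3244 at 173.9, 168.8 and 166.2 FPKM and Gm17257 at 40.0, 37.3 and 33.7 FPKM in the controls. The level of Ndufb2 is uncertain as well, because FPKM depends on the gene length used, which is not given. GENCODE M21 lists 5628 bases of exon for it.

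**Figure D1:**
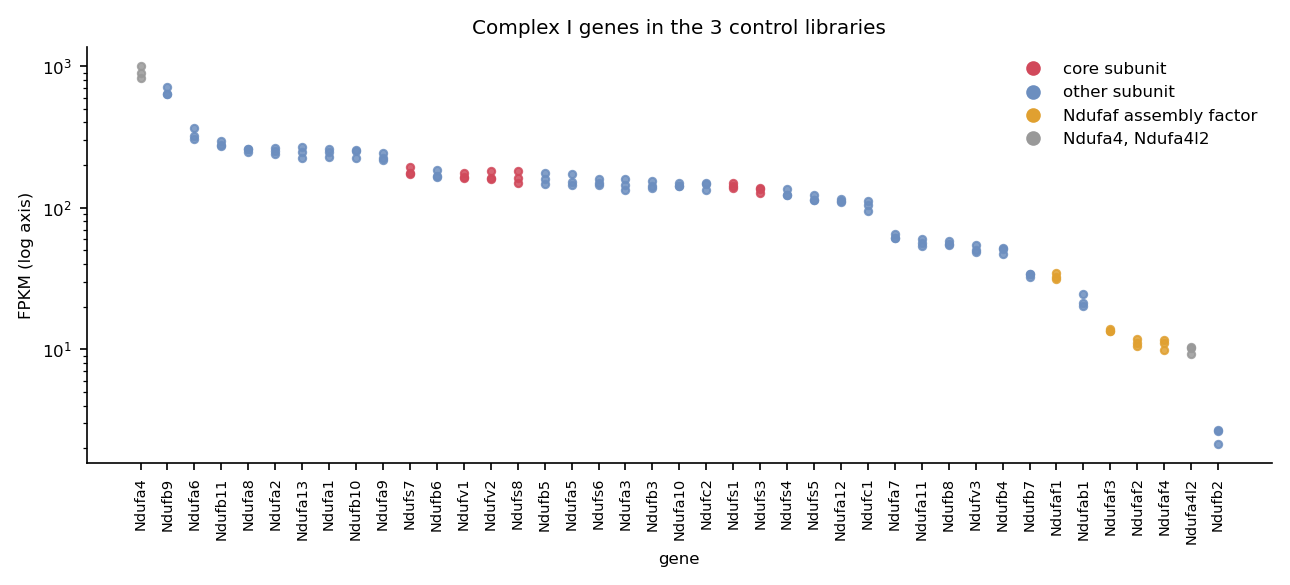
Level of 41 of the 42 genes in the 3 control libraries, in FPKM on a log axis, with genes ordered by their control mean and each point 1 library. The core subunits shown (red) have means of 134 to 181 FPKM, most other subunits (blue) lie above 50 FPKM, and 3 of the 4 Ndufaf genes (orange) have means of 10.8 to 13.6 FPKM.

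Promoter sequence was compared because the subunits are a set of genes for one enzyme. RefSeq windows on GRCm38.p6, from 250 bases before to 50 after the start of each gene, matched 37 of the 42 members and 32 of the 36 subunits. They were searched on both strands for a YY1 element (the run of capitals in the first 4 lines), an NRF1 core (the first run of capitals in the last line), a shorter NRF1 motif (TGCGCA, which can overlap the core), an ERR element (TCAAGGTCA), an ETS motif (CCGGAAG) and a GC box (GGGCGG). The YY1 letters were in 4 of 32 subunit genes (12.5%) against 0.755% of all 27025 genes. They were also in 1 of 7 Ndufaf genes with a window (14.3%), counting genes that stand in the table under older symbols. In each of the 4 subunit genes they lay downstream of the start and include an ATG. In the 250 bases before the start they were in 0 of 32 subunit genes and 0.248% of all genes. The comparison took all genes with a window, whether or not they passed the filter here. The 4 windows are shown because this was the motif of the 6 with the largest ratio between subunits and all genes, and that of the assembly factor Ndufaf4 is shown for its NRF1 core. Capitals mark the YY1 letters in Ndufs7 (chr10:80249199-80249498, plus strand), Ndufa9 (chr6:126849095-126849394, minus strand), Ndufs4 (chr13:114388045-114388344, minus strand) and Ndufs6 (chr13:73328433-73328732, minus strand), and the NRF1 core and GC boxes in Ndufaf4 (chr4:24897833-24898132, plus strand).
Ndufs7: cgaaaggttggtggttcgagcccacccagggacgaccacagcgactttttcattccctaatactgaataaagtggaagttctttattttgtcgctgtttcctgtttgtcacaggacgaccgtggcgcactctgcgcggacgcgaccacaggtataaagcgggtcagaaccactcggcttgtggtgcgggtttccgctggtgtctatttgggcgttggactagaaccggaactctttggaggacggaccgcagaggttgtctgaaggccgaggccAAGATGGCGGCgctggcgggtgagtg
Ndufa9: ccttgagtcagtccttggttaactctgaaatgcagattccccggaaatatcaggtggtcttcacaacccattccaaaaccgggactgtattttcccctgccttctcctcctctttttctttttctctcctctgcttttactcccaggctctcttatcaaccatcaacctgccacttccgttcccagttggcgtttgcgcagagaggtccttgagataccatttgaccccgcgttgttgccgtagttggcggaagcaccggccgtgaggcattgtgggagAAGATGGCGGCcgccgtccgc
Ndufs4: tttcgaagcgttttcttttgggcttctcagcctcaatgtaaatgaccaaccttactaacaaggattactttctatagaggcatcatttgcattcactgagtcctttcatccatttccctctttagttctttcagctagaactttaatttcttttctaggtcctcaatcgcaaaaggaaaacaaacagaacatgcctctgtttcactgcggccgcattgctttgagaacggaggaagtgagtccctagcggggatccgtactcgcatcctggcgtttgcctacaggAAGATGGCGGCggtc
Ndufs6: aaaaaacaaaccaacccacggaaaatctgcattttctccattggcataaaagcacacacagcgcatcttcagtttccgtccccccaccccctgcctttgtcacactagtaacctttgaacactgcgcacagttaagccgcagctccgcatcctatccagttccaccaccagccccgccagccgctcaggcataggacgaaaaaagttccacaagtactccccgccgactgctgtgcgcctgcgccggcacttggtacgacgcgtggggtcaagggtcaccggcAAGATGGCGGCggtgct
Ndufaf4: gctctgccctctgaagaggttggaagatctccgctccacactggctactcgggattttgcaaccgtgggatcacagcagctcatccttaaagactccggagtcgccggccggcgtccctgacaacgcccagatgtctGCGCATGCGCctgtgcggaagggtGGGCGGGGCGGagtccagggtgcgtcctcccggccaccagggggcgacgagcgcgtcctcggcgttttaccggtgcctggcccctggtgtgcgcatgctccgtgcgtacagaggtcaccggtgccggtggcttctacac

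The NRF1 core was in 1 of 32 subunit genes (Ndufa11, 3.12%), in 2 of the 7 Ndufaf genes (28.6%) and in 1.07% of all genes. The shorter motif was in 31.2% of subunit genes, 14.3% of the 7 Ndufaf genes and 8.79% of all genes. The ETS motif was in 12.5% of subunit genes, 28.6% of the 7 Ndufaf genes and 9.93% of all genes, and the GC box in 46.9%, 85.7% and 38.2%. The ERR letters were in 0 of 32 subunit windows and in 0.466% of all genes, which says only that these letters are not in these windows. Among the 4 subunit genes with the YY1 letters, the log2 difference of construct 5 from control was -0.38 for Ndufs7 (SE 0.116), -0.27 for Ndufa9 (SE 0.0989), -0.09 for Ndufs4 (SE 0.0916) and -0.08 for Ndufs6 (SE 0.0649).

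With construct 5 the subunit transcripts lay slightly below the controls, the core subunits most, and no single member passed the test. The median log2 difference was -0.11 over the 36 subunits (range -0.38 to 0.03) against 0.13 over all tested genes, and 34 of 36 were below 0, as were 23.3% of all tested genes. Over the 7 core subunits the median was -0.25 (range -0.38 to -0.22), and over the 29 other subunits -0.09. Of the 42 members, 0 were called at an adjusted p under 0.05 in limma with Benjamini-Hochberg adjustment over all 10794 genes, where 5.27% of genes were called (0.602% lower and 4.67% higher). That share rested on single libraries: 569 genes were called with all 9, but 1 when construct 5 replicate 1 was left out, 41 when its replicate 2 was, 6 when construct 7 replicate 3 was, and 2 to 4 when 1 control was left out, with 78 after median-ratio scaling. At an unadjusted p under 0.05, 10 members were lower and 1 was higher, against 3.4% and 28.5% of all genes. In 13 members, all of them subunits, every construct 5 library lay below every control, against 5.19% of all genes. When libraries were rescaled by median ratios, the subunit median became -0.26 and the core median -0.39, beside 0.01 over all tested genes. In bulk RNA, fewer cells of a type and less RNA per cell cannot be told apart.

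Ndufs7, a core subunit that lines the ubiquinone site and carries an iron-sulfur cluster, had the most negative difference. Its values were 193.6, 174.1 and 175 FPKM in the controls, 121.9, 162.2 and 133.3 with construct 5 and 175.2, 151.4 and 184.2 with construct 7. Every construct 5 library was below every control, while construct 7 overlapped both. The difference with construct 5 was -0.38 (SE 0.116, 95% interval -0.65 to -0.12, limma adjusted p = 0.0741), and its mean was 76.9% of control.

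Ndufv1, which binds NADH and the flavin, gave 177.2, 163 and 164.2 FPKM in the controls, 119.2, 160.4 and 130 with construct 5 and 166.7, 164.3 and 179.1 with construct 7. Construct 5 replicate 2 lay just below the lowest control, and the other construct 5 libraries lay further below. The difference was -0.31 (SE 0.106, limma adjusted p = 0.0963).

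In the remaining core subunits construct 5 replicate 1 was again the lowest library. Ndufv2, which carries an iron-sulfur cluster near the flavin, gave 181.9, 158.5 and 161 FPKM in the controls, 123.5, 148.4 and 147 with construct 5 and 152.9, 144 and 171.7 with construct 7. Ndufs3, a structural core subunit of the matrix arm, gave 138, 136.4 and 126.9 FPKM in the controls, 101.4, 122.6 and 114.7 with construct 5 and 123.3, 127.3 and 143.9 with construct 7. Neither overlapped between construct 5 and control, at differences of -0.26 (limma adjusted p = 0.123) and -0.25 (limma adjusted p = 0.112).

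Ndufs8, which holds iron-sulfur clusters on the path to ubiquinone, gave 180.7, 162 and 150.4 FPKM in the controls, 123.6, 161.2 and 139.7 with construct 5 and 151.3, 158.1 and 184.4 with construct 7. Ndufs1, the largest subunit and an iron-sulfur protein, gave 142.7, 137.5 and 148.6 FPKM in the controls, 107.6, 140.2 and 123.1 with construct 5 and 146, 138.1 and 153.7 with construct 7. Both differed by -0.22 with construct 5 (limma adjusted p = 0.225 and 0.164) and overlapped the controls through construct 5 replicate 2. Without construct 5 replicate 1 the differences were -0.13 for Ndufs8 and -0.12 for Ndufs1. In all 7 core subunits construct 5 replicate 1 held the lowest value of the 9 libraries, as it did in 22 of the 36 subunits and in 7.79% of all tested genes.

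**Figure D2:**
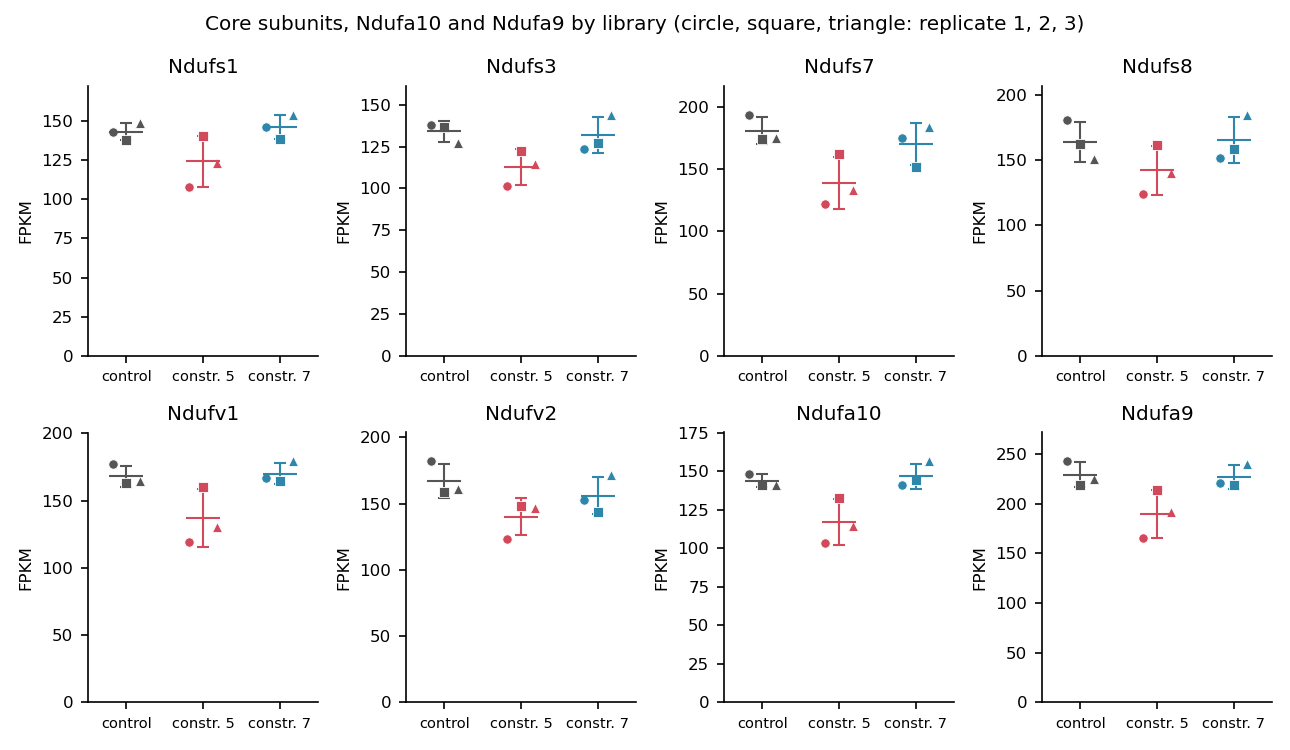
FPKM of 6 core subunits and of Ndufa10 and Ndufa9 in each library, from 0, for controls (grey), construct 5 (red) and construct 7 (blue), where marker shape gives the replicate, the horizontal line the mean and the bars the SD. In each panel the lowest of the 9 points is construct 5 replicate 1, for example 121.9 FPKM in Ndufs7 against at least 174.1 FPKM in the controls.

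Among accessory subunits the lower values were spread over both arms. Ndufa10, an accessory subunit of the membrane arm on its matrix side, gave 148.3, 141.4 and 141.3 FPKM in the controls, 103.3, 132.7 and 114.7 with construct 5 and 141, 144.5 and 156.5 with construct 7. All construct 5 values were below all others. The difference from control was -0.30 (SE 0.0941, limma adjusted p = 0.079). Ndufa9, which stands near the ubiquinone site, gave 242.5, 218.3 and 225.2 FPKM in the controls, 165.1, 213.5 and 191.5 with construct 5 and 220.6, 218.8 and 240.1 with construct 7, again with all construct 5 values lowest. It differed by -0.27 from control (SE 0.0989, limma adjusted p = 0.106), and by -0.18 without construct 5 replicate 1. Ndufb9 gave 708.6, 640.2 and 630.8 FPKM in the controls, 502.6, 602.1 and 574 with construct 5 and 635.1, 633.4 and 693 with construct 7, so that construct 5 lay below both other groups, by -0.24 against control (limma adjusted p = 0.116).

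The median difference was -0.09 over the 9 other matrix arm subunits and -0.09 over the 19 membrane arm subunits. Both lay nearer 0 than the core median. Only Ndufa1, a small membrane arm subunit (0.01), and Ndufab1, the mitochondrial acyl carrier protein (0.03), had a difference above 0, and both turned negative with median-ratio scaling. By name, the median was -0.07 for the 12 Ndufa genes with Ndufab1, -0.10 for the 10 Ndufb genes, -0.22 for the 8 Ndufs genes and -0.26 for the 3 Ndufv genes. The core genes were also longer (median 2178 bases of exon against 1251), and across the 36 subunits the difference had a Spearman correlation of -0.25 with length and of -0.25 with control level, against 0.06 and -0.30 across 10456 genes. These are descriptions across genes that share libraries. The same controls enter the difference and the control level, which alone can make that correlation negative.

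**Figure D3:**
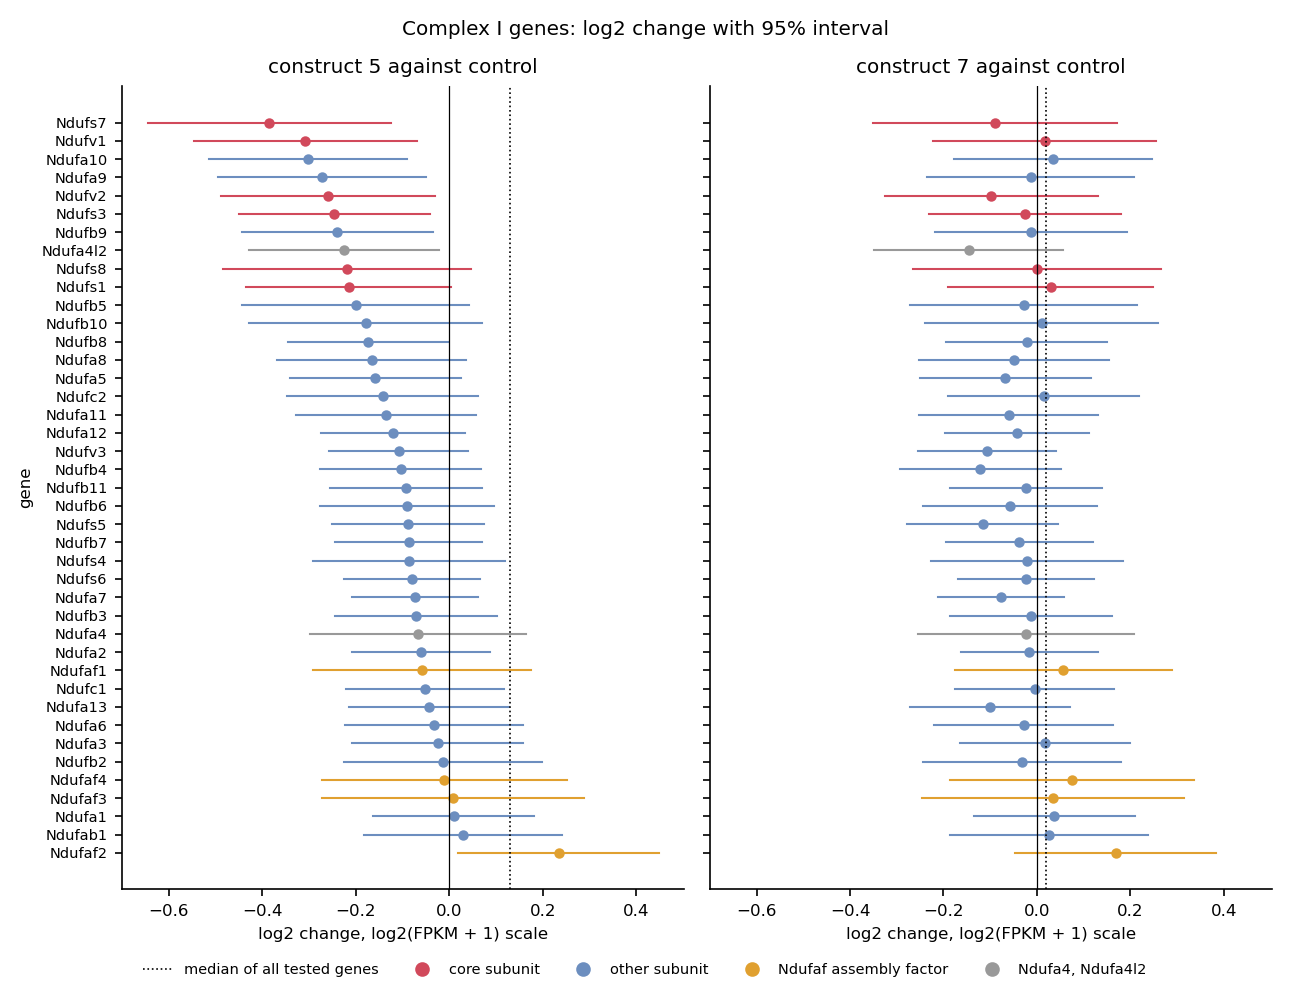
Log2 difference from control on the log2(FPKM + 1) scale with its 95% interval for 41 of the 42 genes, for construct 5 (left) and construct 7 (right), ordered by the construct 5 value, with a dotted line at the median of all tested genes. With construct 5 the core subunits (red) are all on the negative side, and with construct 7 every interval spans 0.

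The 4 Ndufaf assembly factors had a median difference of -0.001 with construct 5, which was -0.14 after median-ratio scaling and -0.11 after quantile normalization. The difference between this list and the subunits was not tested. Single values ran from -0.06 for Ndufaf1 to 0.23 for Ndufaf2, and 0 were called. Ndufaf2, a late assembly factor related to the subunit Ndufa12, gave 11.76, 11.03 and 10.63 FPKM in the controls, 12.86, 13.7 and 13.23 with construct 5 and 10.96, 14.64 and 12.55 with construct 7. Each construct 5 library was above each control, as in 33% of all tested genes, and construct 7 overlapped both. The difference with construct 5 was 0.23 (SE 0.0954, 95% interval 0.02 to 0.45, limma adjusted p = 0.131), and it was 0.097 with median-ratio scaling and 0.12 with quantile normalization.

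Ndufaf1, a member of the intermediate assembly complex that builds part of the membrane arm, gave 34.68, 32.26 and 31.48 FPKM in the controls, 27.96, 32.77 and 33.88 with construct 5 and 31.81, 31.77 and 39.31 with construct 7. Ndufaf3, which binds Ndufaf4 during assembly of the ubiquinone part, gave 13.41, 13.96 and 13.48 FPKM in the controls, 12.39, 15.56 and 13.31 with construct 5 and 11.31, 16.25 and 14.81 with construct 7. Ndufaf4 gave 11.56, 9.87 and 11.06 FPKM in the controls, 10.71, 9.94 and 11.57 with construct 5 and 11.78, 9.47 and 13.39 with construct 7. In all 3 the groups overlapped, and the limma adjusted p with construct 5 was at least 0.712.

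A further 4 Ndufaf genes stand in the table under older symbols and were not taken by the name. Ndufaf6 (2310030N02Rik), which is needed early in assembly, was at 16.63, 14.28 and 15.82 FPKM in the controls, 10.82, 12.83 and 12.95 with construct 5 and 13.85, 11.84 and 13.68 with construct 7. Both constructs lay below every control, as in 5.19% of all genes with construct 5 and 6.26% with construct 7. The construct means were 78.3% and 84.3% of control, with limma adjusted p = 0.0665 and 0.486. Ndufaf5 (2310003L22Rik), which modifies Ndufs7, differed by -0.24 with construct 5, and its construct 5 values were below every control (5.19% of all genes), at a limma adjusted p = 0.174. Ndufaf7 (2410091C18Rik), a methyltransferase, differed by -0.16, and Ndufaf8 (1810043H04Rik), the partner of Ndufaf5, by 0.01. With construct 5 the median was -0.20 over these 4 genes under older symbols and -0.03 over all 8 Ndufaf genes. The position of the list thus depends on which symbols are counted.

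**Figure D4:**
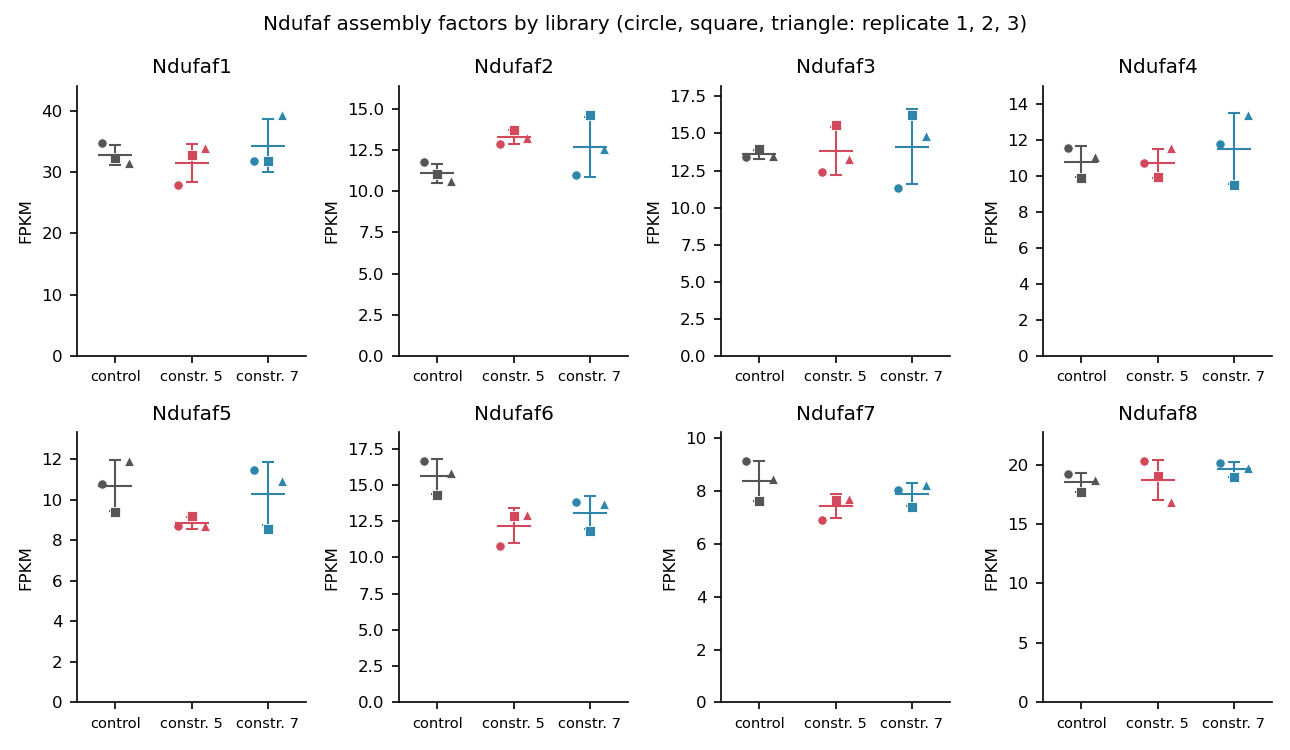
FPKM of the 8 Ndufaf genes in each library, from 0, with Ndufaf5 to Ndufaf8 taken from rows under older symbols; colours are control (grey), construct 5 (red) and construct 7 (blue), marker shape gives the replicate, lines the mean and bars the SD. Ndufaf2 is higher in all 3 construct 5 libraries than in any control, and Ndufaf6 is lower in all 6 siRNA libraries than in any control.

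Other known assembly factors were looked up by name, and 11 were in the table. With construct 5 their median was -0.04, 8 were below 0 (beside 23.3% of all tested genes) and 0 were called (5.27%). Ecsit, a partner of Ndufaf1, was at 60.8, 60.76 and 59.99 FPKM in the controls and 45.8, 53.73 and 50.03 with construct 5, a difference of -0.28 (SE 0.0735, limma adjusted p = 0.0579). Every construct 5 value was below every control, as in 5.19% of all genes. Foxred1, which acts in later assembly, lay above every control with both constructs. This held for 33% of all genes with construct 5 and 10.5% with construct 7. The Foxred1 means were 110.9% of control with construct 5 and 119.2% with construct 7 (limma adjusted p = 0.251 and 0.401).

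The 7 subunits encoded by mitochondrial DNA had a median of -0.27 with construct 5, all 7 were below 0 (beside 23.3% of all tested genes), 4 lay entirely below the controls (5.19%) and 0 were called (5.27%). With construct 7 their median was 0.05. mt-Nd5, a proton-pumping subunit, was at 5286, 5413 and 5124 FPKM in the controls, 3848, 4974 and 4648 with construct 5 and 5703, 4887 and 6176 with construct 7, so construct 5 was below every control. The difference was -0.24 (limma adjusted p = 0.202). Of the 7, mt-Nd5 had the closest controls, with a coefficient of variation of 2.7% against 7.0% to 21.4% in the others. In mt-Nd1, mt-Nd4l and mt-Nd6 construct 5 overlapped the controls.

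With construct 7, in which Ubr4 was at 29.1% of control, the subunits stayed near the controls. Both constructs were set against the same 3 controls. The median difference was -0.03 over the 36 subunits and -0.03 over the 7 core subunits, against 0.02 over all tested genes, and 27 of 36 were below 0 beside 43% of all tested genes. These positions rested on single libraries: 14 subunits were below 0 when control replicate 1 was left out (median 0.01), 19 for construct 7 replicate 2 and 34 for its replicate 3 (median -0.07), and 15 when libraries were scaled by their nuclear total. Of the 42 members 0 were called by limma, beside 0.0556% of all genes, and 0 had an unadjusted p under 0.05 (3.63% of all genes lower and 5.84% higher). Among the 42, only Ndufa7, a matrix arm subunit, had all construct 7 values below the controls (58.27, 59.29 and 59.93 against 65.14, 61.16 and 61.15 FPKM), beside 6.26% of all genes, and 0 had all of them above, beside 10.5%. The smallest unadjusted p was that of Ndufaf2, at a difference of 0.17 (limma adjusted p = 0.629), and the 4 Ndufaf genes had a median of 0.07, which was -0.02 when construct 7 replicate 3 was left out and 0.14 when its replicate 1 was.

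The next in order were subunits or relatives at about -0.1. Ndufv3, an accessory protein of the NADH-binding part, gave 54.47, 48.56 and 49.93 FPKM in the controls, 46.5, 47.81 and 47.17 with construct 5 and 45.6, 47.37 and 48.73 with construct 7. Ndufs5, a membrane arm subunit, gave 122.7, 113 and 113.6 FPKM, then 109.1, 105.3 and 113.8, then 101, 107.4 and 113.7. Construct means of these genes were 92.2% to 94.0% of control. In both genes the highest construct 7 value lay within the control range. Ndufb4, a membrane arm subunit, gave 52.19, 47.37 and 51.07 FPKM in the controls, 45.2, 49.35 and 45.41 with construct 5 and 46.93, 42.45 and 48.97 with construct 7, with overlap throughout. Ndufa4l2, a relative of Ndufa4 induced by hypoxia, gave 10.27, 10.41 and 9.29 FPKM in the controls, 7.65, 9.44 and 8.16 with construct 5 and 8.47, 9.78 and 8.56 with construct 7, a difference of -0.15 with construct 7 (limma adjusted p = 0.672).

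Set directly against each other, construct 7 lay above construct 5 in 30 of 36 subunits, while 75.5% of all tested genes were below 0. The median difference was 0.07 over the subunits and 0.22 over the 7 core subunits, against -0.10 over all tested genes. Of the 42 members 0 were called by limma (1.22% of all genes, with 0.148% higher and 1.07% lower), and 8 had an unadjusted p under 0.05, all higher, against 2.57% of all genes higher and 20.5% lower. That number of members was 2 without construct 5 replicate 1, construct 5 replicate 3 or construct 7 replicate 3, and 21 after median-ratio scaling. Ndufa10 had the smallest p, at 0.34 (SE 0.0941, 95% interval 0.13 to 0.55, limma adjusted p = 0.0955), and Ndufv1 followed at 0.33 (limma adjusted p = 0.129). In 6 members every construct 7 library was above every construct 5 library, beside 3.02% of all genes. Ndufa13, which also has a role in cell death signalling, lay the other way without overlap (234.9, 233.5 and 220.1 against 237.1, 236.2 and 242.6 FPKM), beside 22.4% of all genes, and turned positive with median-ratio scaling.

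The libraries of construct 5 were not alike. Taken as the median difference from the control mean, the core subunits stood at -0.41, -0.12 and -0.23 in construct 5 replicates 1, 2 and 3, at 0.08, -0.05 and -0.05 in the controls and at -0.04, -0.07 and 0.09 with construct 7. Replicate 1 was the lowest of the group in 29 of 36 subunits and replicate 2 the highest in 28. The 4 Ndufaf genes taken by name stood at -0.07, 0.09 and 0.07 in the same construct 5 libraries. All 8 Ndufaf genes stood at -0.17, -0.06 and -0.07 there. They stood at 0.08, -0.09 and 0.01 in the controls and at -0.03, -0.10 and 0.10 with construct 7. The mitochondrially encoded subunits gave -0.50, -0.13 and -0.17 with construct 5. They gave 0.18, -0.03 and -0.15 in the controls and 0.11, -0.20 and 0.23 with construct 7. In this list only construct 5 replicate 1 lay below every control and every construct 7 library. Without construct 5 replicate 1, the core median was -0.17 and the number of members with an unadjusted p under 0.05 went from 11 to 3. Among the controls, replicate 1 was the highest in 31 of 36 subunits, and without it the core median was -0.22 and that number was also 3. Without construct 5 replicate 3 it was 6. For the counts of subunits lowest or highest within a group, the share over all tested genes was not computed.

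Marker genes of other cell types and of slow fibres stood higher with construct 5 in several lists. The 11 macrophage markers summed to 124 to 184 FPKM in the controls, 204 to 369 FPKM with construct 5 and 101 to 153 FPKM with construct 7. Of the 10 tested, 2 passed the test as higher with construct 5, Lgals3 (limma adjusted p = 0.0476) and Lyz2 (limma adjusted p = 0.0491), beside 4.67% of all genes. The 8 fibroblast and matrix markers summed to 367 to 430, 468 to 735 and 291 to 317 FPKM, and 2 of 8 passed as higher with construct 5, Thbs2 (limma adjusted p = 0.045) and Col1a2 (limma adjusted p = 0.0491). Without construct 5 replicate 1 only 1 gene of all those tested was called, so at most 1 of these 4 calls remained. The highest sums of both lists were in construct 5 replicate 2. Endothelial markers summed to 79.5 to 91.4, 76.1 to 100 and 78.5 to 88.8 FPKM, and the 5 adipocyte markers to 264 to 319, 292 to 372 and 253 to 301 FPKM, a sum that is mostly Fabp4. Construct 5 replicate 2 stood apart in the other adipocyte markers, with Adipoq at 8.089 FPKM against 0.7411 to 1.324 in the controls and Cfd at 53.48 against 5.212 to 10.11 FPKM. The 6 slow fibre markers summed to 52.8 to 68.3 FPKM in the controls, 73.3 to 96.4 with construct 5, without overlap, and 67 to 97.9 with construct 7. Of the 5 tested, 3 were above every control with construct 5, beside 33% of all genes, at a list median of 0.68, and 0 were called. Myl3 lay the other way at -0.40, with 7.636, 38.2 and 46.3 FPKM with construct 5 against 27.36 to 37.8 FPKM in the controls. The 10 fast fibre markers summed to 73464 to 80600, 67241 to 76472 and 61547 to 75903 FPKM. With construct 5, 4 of them lay below every control, beside 5.19% of all genes, while another 4 had a difference above 0. With construct 7, 4 lay below every control and 1 above, beside 6.26% and 10.5% of all genes. In both comparisons 0 were called. No marker was listed at 0 in any library. Their part in the subunit differences was not tested.

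**Figure D5:**
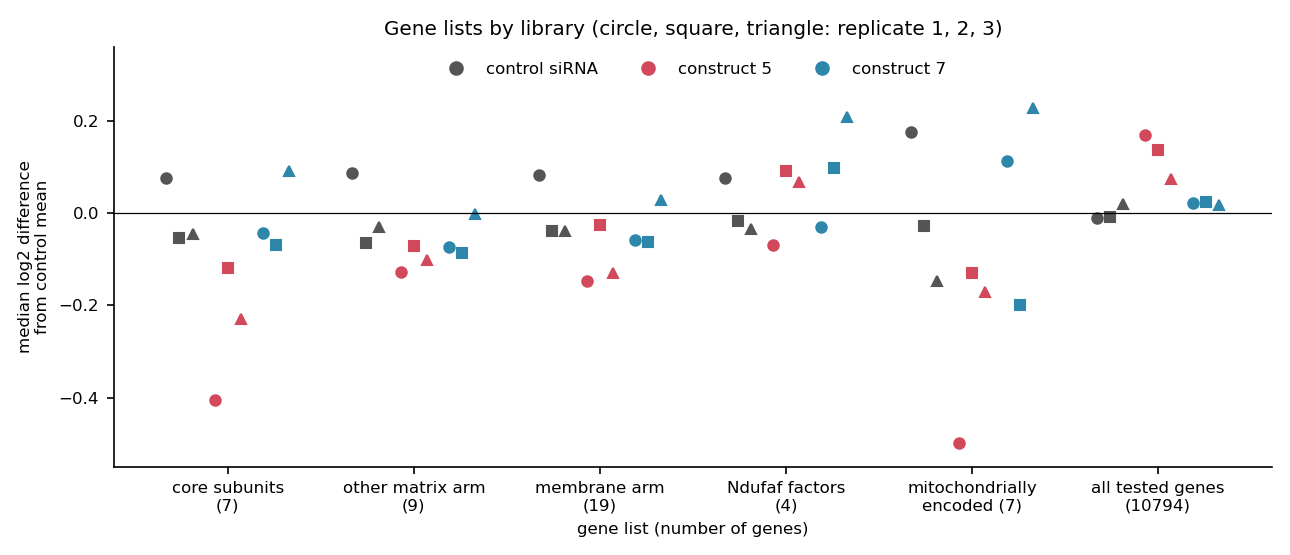
Median log2 difference from the control mean for each gene list, with 1 point for each library; the shape gives the replicate and the colour the group (grey control, red construct 5, blue construct 7). Construct 5 replicate 1 is lowest in the core list (-0.41) and the mitochondrially encoded list (-0.50), while the same library lies at 0.17 over all tested genes.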

How the data were processed

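RNA was extracted from electroporated tibialis anterior muscle and sequenced. The deposited table holds FPKM values made by the authors; per the submitters' processing notes BWA, STAR and HTSeq were used with the mouse genome mm9, and their versions and roles are not given in the sources used here. Samples were grouped by their labels into 3 groups of 3. Depth was estimated from the steps of low FPKM values with exon lengths (GENCODE M21) for 21323 genes; 71.9% to 74.2% of values under 50 reads were whole within 0.1 reads, so no count test was used.

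log2(FPKM + 1) was fitted to the 9 samples by limma (version 3.58.1, under R 4.3.3; trended spread, Benjamini-Hochberg over the 10794 genes with a mean FPKM of at least 1, threshold 0.05). Log2 differences understate the change of low genes. The method was run on simulated data with independent genes and larger differences than those of the members. That check does not cover differences of this size or shifts shared by the genes of a library. Named genes were the Ndufaf and core genes (1 core gene counts in the lists but is not reported here), per comparison the 5 with the smallest p and the extremes, and those highest and lowest in the controls. The members, lists and motifs were chosen with earlier results of these data known. The 21 alternatives per comparison changed the scaling, filter, pseudocount, spread, block and libraries.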

Additional observations from a re-analysis of the deposited data

How the results depend on the processing

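No member was called in any of the 21 alternatives of each comparison with limma; the smallest adjusted p ranged from 0.064 to 0.223 for construct 5, from 0.406 to 0.847 for construct 7 and from 0.0637 to 0.258 for construct 7 against construct 5. The number of members with an unadjusted p under 0.05 with construct 5 went from 11 to 31 with median-ratio scaling, to 6 without construct 5 replicate 3, and to 3 without construct 5 replicate 1 or control replicate 1. Median-ratio scaling moved the median of all tested genes with construct 5 from 0.13 to 0.01, and quantile normalization to -0.01. With median-ratio scaling the subunit median was -0.26 with construct 5 and 0.19 for construct 7 against construct 5, the core median -0.39 and 0.34, and the Ndufaf median -0.14 and 0.17; with quantile normalization the Ndufaf median with construct 5 was -0.11. Median-ratio scaling with construct 5 replicate 1 left out, an alternative chosen after seeing the data, gave a subunit median of -0.21. The 7 core subunits kept their direction with construct 5 in every alternative. Differences near 0 reversed. Under median-ratio scaling, the same with construct 5 replicate 1 left out, and quantile normalization, the values were -0.11, -0.045 and -0.050 for Ndufab1 and -0.13, -0.036 and -0.090 for Ndufaf3 with construct 5, and 0.092, 0.061 and 0.034 for Ndufs5 between the constructs. Under both median-ratio settings Ndufa1 with construct 5 gave -0.14 and -0.11, and Ndufa13 between the constructs gave 0.063 and 0.030. Ndufaf2 between the constructs gave 0.046 with median-ratio scaling and 0.027 with quantile normalization. Leaving out 1 library at a time gave with construct 5 -0.039 to 0.053 for Ndufa1, -0.027 to 0.11 for Ndufab1, -0.11 to 0.023 for Ndufaf1, -0.079 to 0.075 for Ndufaf3 and -0.070 to 0.039 for Ndufaf4. With construct 7 it gave -0.043 to 0.11 for Ndufaf1, -0.067 to 0.18 for Ndufaf3 and -0.030 to 0.20 for Ndufaf4. Between the constructs it gave -0.16 to 0.029 for Ndufaf2 and -0.069 to 0.015 for Ndufs5. Without a filter Ubr4 was -1.20 (limma adjusted p = 0.0523) with construct 5 and -1.47 (limma adjusted p = 0.0976) with construct 7. Leaving out 1 library gave -1.29 to -1.09 and -1.56 to -1.38. The limma adjusted p then passed 0.05, with construct 5, without construct 5 replicate 1 (0.0956), control replicate 2 (0.0629) or control replicate 3 (0.0941), and, with construct 7, without construct 7 replicate 2 (0.0736), control replicate 2 (0.0598) or control replicate 3 (0.0877). The cause was not tested. After removal of group means, same-numbered samples correlated from -0.364 to 0.313 and differently numbered ones from -0.566 to 0.518. These values cannot decide whether equal numbers mark a shared animal or day, which is not given in the sources used here. With the replicate block 0 members were called, and the smallest limma adjusted p was 0.1, 0.629 and 0.116.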
